A study of Mus musculus with 4 samples.

Results

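The genes described here form the T cell receptor complex and its first signalling steps: the CD3 chains Cd3d, Cd3e and Cd3g, the zeta chain Cd247, the coreceptor Cd4, the costimulatory receptor Cd28, the kinases Lck and Zap70 and the adaptors Lat and Themis. They were named as a list of 10 genes. Of these, 9 had a probe set annotated to that gene alone, 1 probe set each, among 19938 genes measured in this way on the array. Lck had no such probe set in the annotation used here and has no value.

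The study profiled total RNA of CD4+ cells from the spleen of C57BL/6 mice on 4 single-channel Affymetrix arrays. In 1 group, 2 samples came from CD4+ lymphoma that had arisen in homozygous Tet2 gene trap mice, and in the other, 2 samples of CD4+ splenocytes came from wild type mice. A gene trap is a cassette that interrupts a transcript, and Tet2 oxidises methylated cytosine in DNA. Genotype and malignancy changed together, so they cannot be told apart. Cells of both groups were selected with a CD4 antibody on magnetic columns, so the protein product of Cd4 was itself the basis of the selection. The collected cells need not all have been CD4+ T cells. On the wild type arrays the B cell marker Cd79a had intensities of 4016 and 2175, and sums of markers of other cell types are given below. The sources used here give no ages, no number of mice behind the samples and no position of the trap, and p-values measure the spread between these samples, which may be technical.

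The T cell receptor recognises peptides held by MHC molecules but has no signalling domain of its own. It signals through the CD3 and zeta chains, whose tyrosines are phosphorylated by Lck, brought to the receptor by CD4. The kinase ZAP-70 then docks on the chains and phosphorylates the membrane scaffold LAT, on which the adaptors GADS (Grap2) and SLP-76 (Lcp2) assemble with phospholipase C-gamma. THEMIS is an adaptor of the T lineage that binds GRB2 and tunes the strength of this signal during selection in the thymus.

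The arrays had similar overall signal, with median intensities between 129.8 and 141.8 over all probe sets. The targeted gene Tet2 had intensities of 980 and 1016 in wild type and 596 and 399 in lymphoma, so both lymphoma values were lower (adjusted p = 0.077, limma). Markers of T cells outside the list had signal in both groups but did not differ in the same direction. The summed intensity of Cd2, Cd5 and Cd6 was 8785 and 7870 in wild type and 6493 and 6648 in lymphoma. On the log2 scale Cd2 differed by 0.32, Cd5 by -0.92 and Cd6 by -0.86, and none passed. Both lymphoma arrays were below wild type for Cd5 and Cd6, and above it for Cd2. For Cd6 the lymphoma arrays lay 1.17 apart on the log2 scale. Its intensities were 1996 and 1708 in wild type, 677 on lymphoma array 1 and 1527 on lymphoma array 2. Markers of several other cell types differed between the groups. The summed intensity of 9 B cell markers was 19598 to 28789 in wild type and 6108 to 7744 in lymphoma. Of the 9, 7 fell at an adjusted p under 0.05 in limma, beside 2.46% of all genes. The sum of 10 macrophage and monocyte markers was 10297 to 10557 against 2896 to 4137, with 7 lower. That of 9 dendritic cell markers was 4434 to 5303 against 940 to 941, with 6 lower. The sum of 8 natural killer cell markers was 1258 to 1408 in wild type and 1758 to 2131 in lymphoma. Of these, Klri2 fell and none rose. Eomes, Gzma and Prf1, which activated T cells can also express, were above wild type on both lymphoma arrays without passing. Ncr1 (difference -0.85) and Klra8 (-0.53) were below wild type on both lymphoma arrays, also without passing. Sums of erythroid markers (612 and 789 against 555 and 1094) and of platelet markers (382 and 457 against 359 and 423) overlapped between the groups. None of these markers was listed at 0, and no detection calls were used here. In such bulk samples fewer cells of a type and less RNA per cell cannot be told apart.

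The adaptors Themis and Lat fell in lymphoma, while none of the 9 measured genes rose at an adjusted p under 0.05 in limma. Themis was 2.83-fold lower and Lat 2.08-fold lower. The 3 CD3 chains, Cd4 and Zap70 had log2 differences between 0.37 and 0.97 above wild type that did not pass, and Cd247 and Cd28 had overlapping groups. The summed signal of B cell, macrophage and dendritic cell markers was lower on the lymphoma arrays. The part of the cell mix in the members' differences was not tested. The 2 falls among 9 genes stand beside 2.46% of all genes called lower, and the 0 rises beside 1.82% called higher. At an unadjusted p under 0.05, 5 of the 9 were higher and 2 lower, against 8.73% and 6.92% of all genes. Both lymphoma arrays lay above both wild type arrays for 5 of the 9 genes, compared with 20.6% of all genes, and below them for 2 of 9, compared with 23.5%. The median log2 difference of the 9 genes was 0.37 and that of all genes was -0.04.

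**Figure D1:**
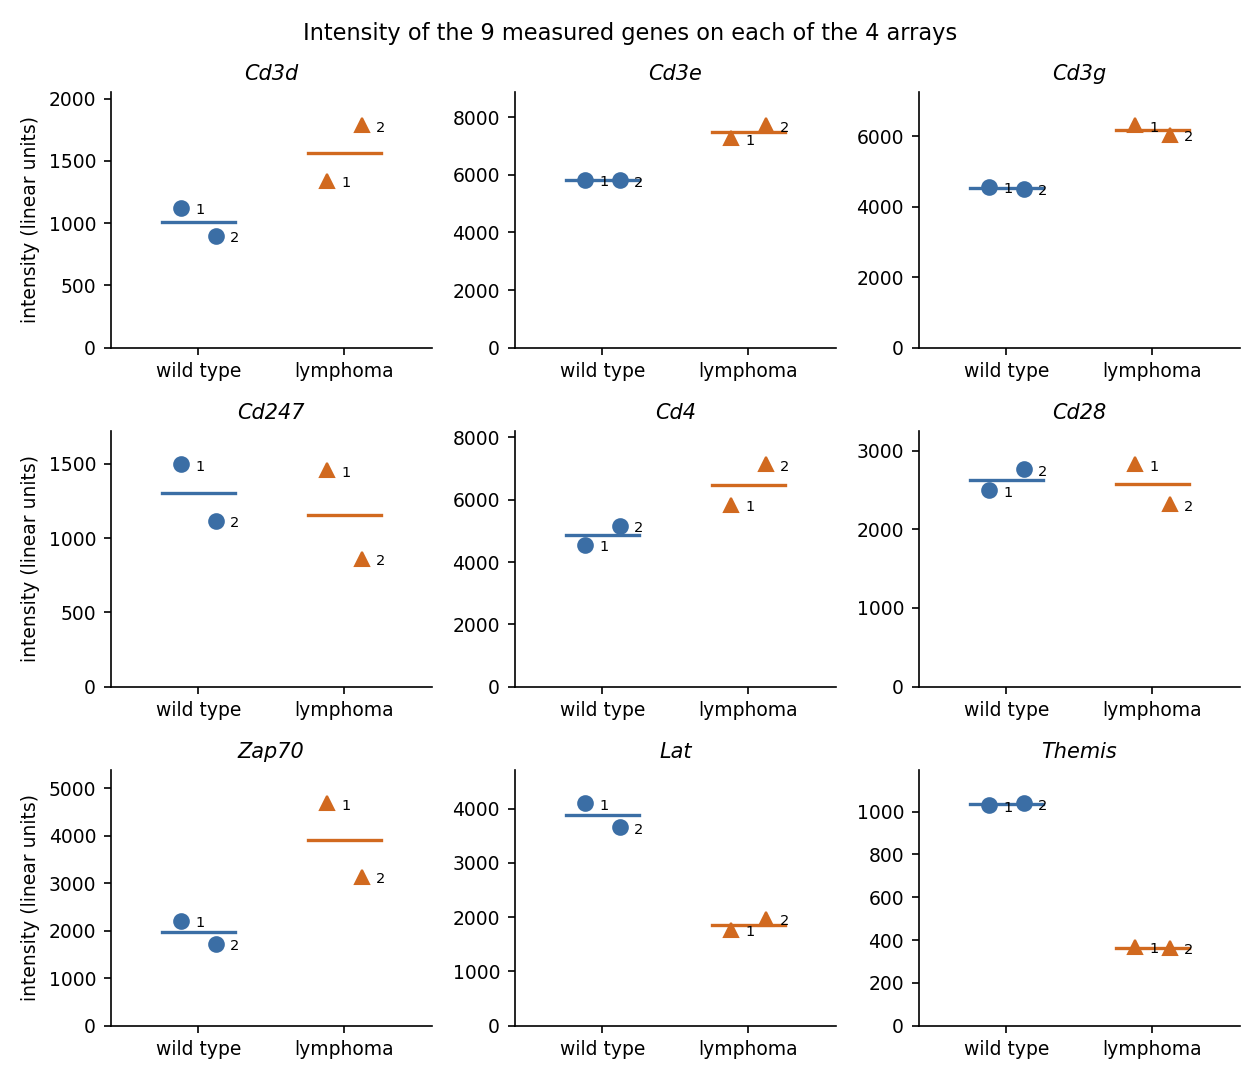
Intensity (linear units, vertical axes starting at 0) of each measured gene on the 2 wild type arrays (circles) and the 2 lymphoma arrays (triangles), numbered by array, with the group mean as a line. Lat and Themis are lower on both lymphoma arrays, 5 genes are higher on both, and Cd247 and Cd28 overlap.

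Among the receptor chains, Cd3e and Cd3g were tightly reproduced within each group. Cd3e, a chain that pairs with both CD3 partners, had intensities of 5823 and 5806 in wild type and 7271 and 7720 in lymphoma. Both lymphoma values were higher. The log2 difference was 0.37 (SE 0.13, 95% interval 0.05 to 0.68, adjusted p = 0.24 in limma). Cd3g, the gamma chain, measured 4557 and 4501 in wild type against 6314 and 6050 in lymphoma, again without overlap. Its log2 difference was 0.45 (SE 0.14, 95% interval 0.12 to 0.78, adjusted p = 0.16).

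Cd3d, the delta chain, had intensities of 1121 and 898 in wild type and 1341 and 1785 in lymphoma. The lymphoma arrays were both higher but differed from each other by 0.41 on the log2 scale, where the median gene differed by 0.21. The log2 difference between the groups was 0.63 (SE 0.22, 95% interval 0.09 to 1.16, adjusted p = 0.23). Over the 3 CD3 genes the mean log2 difference was 0.48, a 1.29-fold to 1.54-fold higher signal per gene, and no single gene passed the test. All 3 kept a positive difference under the between-array normalizations tried that leave them a value.

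Cd247 encodes the zeta chain, which carries more signalling motifs than any other chain of the receptor. It did not share the direction of the CD3 chains. Its intensities were 1496 and 1117 in wild type and 1455 and 862 in lymphoma. Lymphoma array 1 lay within the wild type range, and lymphoma array 2 below it. The log2 difference was -0.21 (SE 0.29, 95% interval -0.92 to 0.51, adjusted p = 0.85). Leaving out lymphoma array 2 gave 0.17 and leaving out lymphoma array 1 gave -0.58. Without wild type array 1 the value was 0.00397, and without wild type array 2 it was -0.42.

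Cd4, which brings Lck to the receptor, had intensities of 4552 and 5153 in wild type and 5839 and 7134 in lymphoma, with both lymphoma values higher. The log2 difference was 0.41 (SE 0.16, 95% interval 0.02 to 0.81, adjusted p = 0.29), and 0.27 without lymphoma array 2. Cd28, the receptor for the costimulatory ligands CD80 and CD86, measured 2494 and 2762 in wild type and 2825 and 2315 in lymphoma. The lymphoma values lay on either side of the wild type values. Its log2 difference of -0.04 had a 95% interval of -0.46 to 0.39 (adjusted p = 0.97), which does not show that the groups are alike.

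Zap70, the kinase that docks on phosphorylated chains, had the largest positive log2 difference of the list. Its intensities were 2205 and 1726 in wild type and 4678 and 3128 in lymphoma. Both lymphoma arrays were higher, and they differed from each other by 0.58 on the log2 scale. The log2 difference between the groups was 0.97 (SE 0.24, 95% interval 0.38 to 1.56, a 1.96-fold higher signal), and the adjusted p of 0.098 in limma did not pass. A lower log2 difference was found for 96.7% of the other genes. Leaving out lymphoma array 2 gave 1.26 and leaving out lymphoma array 1 gave 0.68, each with 1 lymphoma array standing for its group.

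Lat, the scaffold that ZAP-70 phosphorylates, had intensities of 4100 and 3657 in wild type and 1762 and 1968 in lymphoma. Both lymphoma values were below both wild type values, and the gap within each group was 0.16 on the log2 scale. The mean log2 value was 11.92 ± 0.12 (SD, n = 2) in wild type and 10.86 ± 0.11 (SD, n = 2) in lymphoma. Lat fell by 1.06 on the log2 scale (SE 0.16, 95% interval -1.45 to -0.66, adjusted p = 0.022 in limma).

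Themis had the largest fall of the list and closely matching arrays within each group. Its intensities were 1029 and 1039 in wild type and 367 and 363 in lymphoma, with arrays of a group 0.013 apart on the log2 scale. The mean log2 value was 10.01 ± 0.0094 (SD, n = 2) in wild type and 8.51 ± 0.0095 (SD, n = 2) in lymphoma. Themis fell by 1.50 (SE 0.17, 95% interval -1.92 to -1.09, adjusted p = 0.0091 in limma). Only 1.62% of the other genes had a lower log2 difference, compared with 2.87% for Lat. The SE of Themis exceeded its own spread because limma draws each gene's variance towards that of genes of similar level.

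Neither call, on Themis or on Lat, held with a single wild type array. With wild type array 1 left out, their log2 differences were -1.51 and -0.97 (adjusted p = 0.13 and 0.22 in limma). With wild type array 2 left out they were -1.50 and -1.14 (adjusted p = 0.11 and 0.16), and no gene on the array passed in either fit, the other called genes named here included. The counts at an unadjusted p under 0.05 were 1418 higher and 890 lower without wild type array 1, and 929 and 1120 without wild type array 2. With lymphoma array 1 left out, Themis and Lat differed by -1.51 and -0.98, and with lymphoma array 2 left out by -1.50 and -1.14. In those fits 1 lymphoma array stood for its group and the wild type arrays alone set the spread.

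**Figure D2:**
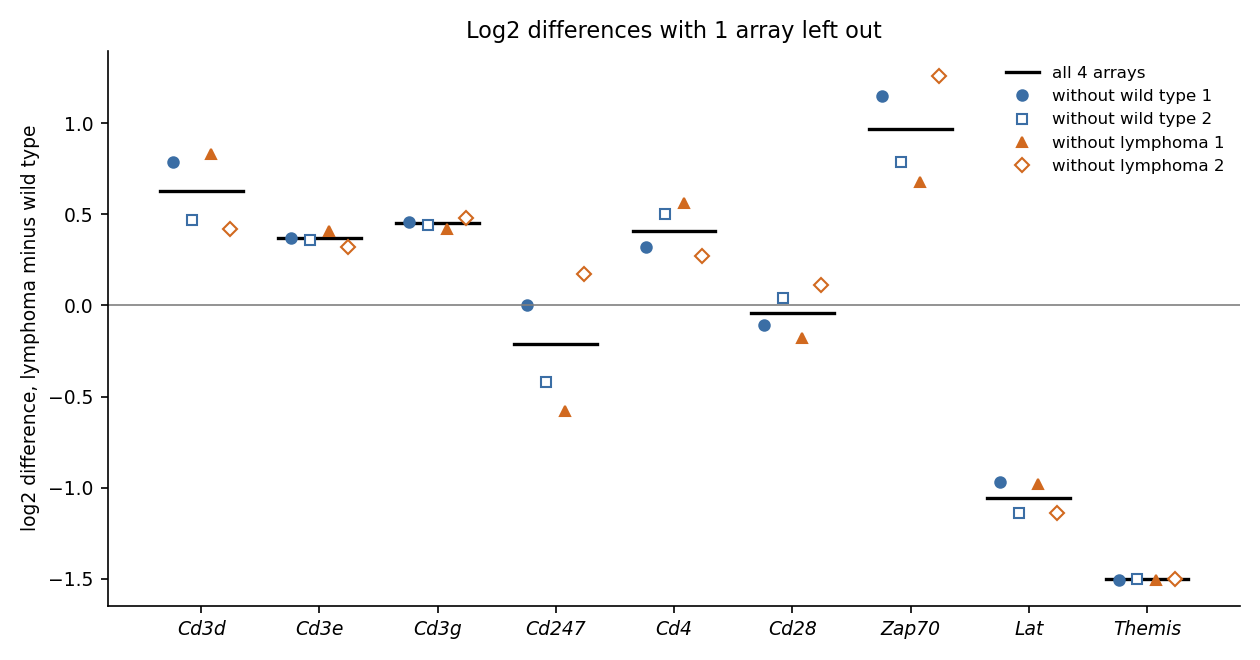
Log2 difference, lymphoma minus wild type, of each measured gene with all 4 arrays (lines) and with 1 array left out (symbols). Themis stays between -1.51 and -1.50 and Lat between -1.14 and -0.97, while Cd247 ranges from -0.58 to 0.17 and Zap70 from 0.68 to 1.26.

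Since the CD3 genes differed in the same direction, the other genes were also set against them by subtracting each array's mean log2 value of Cd3d, Cd3e and Cd3g. This lowers the median log2 difference of all genes to -0.52, and its p-values share the error of the CD3 mean. On this scale 2588 genes (13.0%) were called lower and 275 (1.38%) higher, so 9.61% of calls were rises, compared with 42.5% on the deposited scale. Themis differed by -1.98 (95% interval -2.46 to -1.51, adjusted p = 3.2e-05 in limma) and Lat by -1.54 (95% interval -1.96 to -1.11, adjusted p = 0.00011). The subtraction shifts every gene on an array by the same amount, so it is no separate test of these falls. Relative to the all-gene median on this scale, Themis and Lat differed by -1.46 and -1.02. The deposited-scale values of -1.50 and -1.06 are not taken relative to the all-gene median, which was -0.04 there. Relative to the CD3 genes, Cd4 differed by -0.07 (95% interval -0.49 to 0.36), an interval that holds both signs. Cd247 differed by -0.69 (95% interval -1.28 to -0.10, adjusted p = 0.086 in limma) and Cd28 by -0.52 (95% interval -0.99 to -0.04, adjusted p = 0.095). Set against the median of all genes on this scale, Cd247 differed by -0.17 and Cd28 by 0.00. Zap70 differed by 0.49 (95% interval -0.03 to 1.02, adjusted p = 0.13 in limma). Other T cell markers did not all follow the CD3 genes. On this scale Cd2 differed by -0.16, Cd5 by -1.40 and Cd6 by -1.34, with Cd5 and Cd6 called lower.

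**Figure D3:**
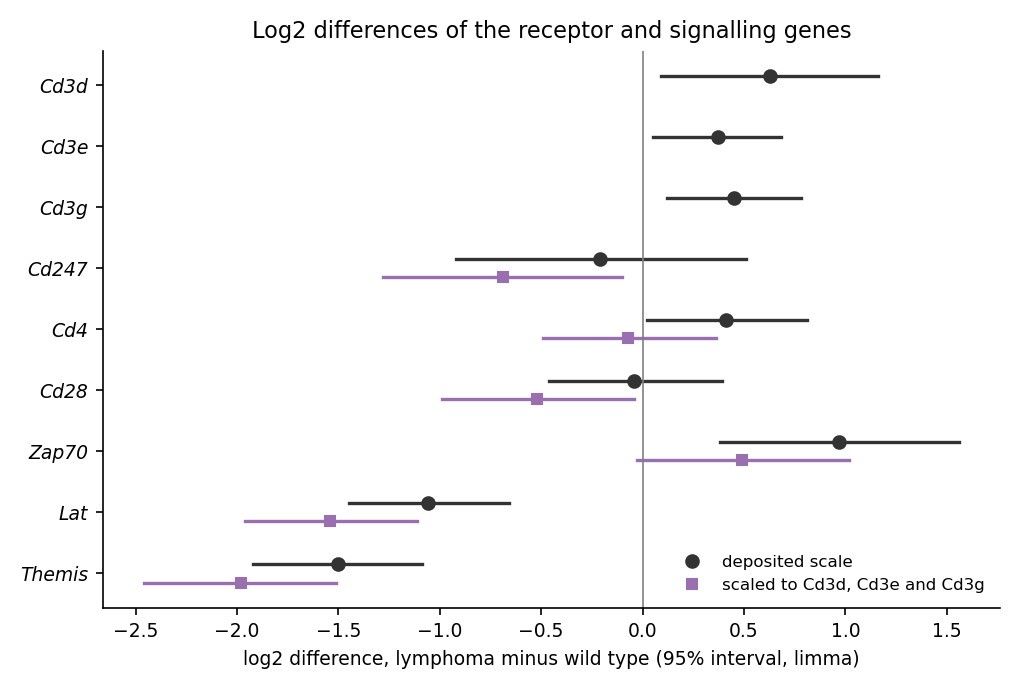
Log2 difference, lymphoma minus wild type, with limma's 95% interval for each measured gene on the deposited scale (circles) and after subtracting the CD3 mean of each array (squares, not defined for the CD3 genes themselves). Lat and Themis lie at -1.06 and -1.50 on the deposited scale and at -1.54 and -1.98 relative to the CD3 genes. The subtraction lowers all genes, taking their median to -0.52, so the squares are no separate support.

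The sequences before the start sites of 4 of these genes are shown to place the values beside the DNA they belong to: Themis and Lat, which fell, Zap70, with the largest positive difference, and Cd3g, the CD3 gene with the lowest p. They come from RefSeq on GRCm38.p6 and run 5′ to 3′ on the gene's strand, in lower case with Ets cores (GGAA on either strand) in capitals. Each is the part of the 250 bases before the first listed start that lies outside every RefSeq model of the gene. Promoters were found in the table for 8 of the 10 genes, and not for Cd4 and Cd28. The Themis bases lie at chr10:28668110-28668359 on the plus strand, those of Lat at chr7:126369706-126369818 on the minus strand, those of Zap70 at chr1:36761548-36761797 on the plus strand and those of Cd3g at chr9:44980432-44980681 on the minus strand.
Themis: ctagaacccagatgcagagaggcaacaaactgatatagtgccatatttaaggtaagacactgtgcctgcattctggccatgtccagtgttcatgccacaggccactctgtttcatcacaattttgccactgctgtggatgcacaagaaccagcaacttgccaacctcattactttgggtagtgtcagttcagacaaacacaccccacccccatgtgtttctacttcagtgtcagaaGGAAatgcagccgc
Lat: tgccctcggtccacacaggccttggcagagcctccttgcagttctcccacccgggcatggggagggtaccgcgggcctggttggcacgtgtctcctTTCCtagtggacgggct
Zap70: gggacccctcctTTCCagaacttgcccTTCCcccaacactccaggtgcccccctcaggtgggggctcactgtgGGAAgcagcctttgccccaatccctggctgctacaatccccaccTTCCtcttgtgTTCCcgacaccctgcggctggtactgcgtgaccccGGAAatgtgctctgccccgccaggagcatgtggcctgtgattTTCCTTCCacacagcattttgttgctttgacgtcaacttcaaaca
Cd3g: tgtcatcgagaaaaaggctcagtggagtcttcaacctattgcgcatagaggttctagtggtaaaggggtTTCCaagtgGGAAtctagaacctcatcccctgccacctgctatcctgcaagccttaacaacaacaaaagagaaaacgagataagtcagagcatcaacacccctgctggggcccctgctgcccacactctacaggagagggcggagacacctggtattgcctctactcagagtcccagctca
The Zap70 window held 8 Ets cores, and 1.45% of the 32851 RefSeq windows of this length had at least 8. Windows of the other listed Zap70 starts held 7 and 0. Among members not shown, the first windows of Cd3d, Cd3e, Lck and Cd247 held 6, 5, 6 and 1. The Themis window held 1, the Cd3g window 2 and the whole 250-base window of Lat 4, of which 1 lies in the bases shown. At least 1 Ets core was present in 93.4% of all windows. The E-box letters CANNTG occurred 2 times in the Themis and Lat windows and 3 times in those of Zap70 and Cd3g, and in 66.2% of all windows. The GATA letters AGATAA occurred 1 time in Cd3g and in 9.99% of all windows, and the Runx letters TGTGGT, searched on both strands like the others, were in none of the 4 and in 14.0% of all. Matches of different motifs may overlap. They describe these letters only, and nothing was measured at these sites.

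The wider pathway was read from 5 lists of other genes with 69 measured of 76 listed: kinases, adaptors, inhibitors, accessory receptors and distal signalling. Of the 69, 1 rose and 6 fell in limma, beside 1.82% and 2.46% of all genes. By unadjusted p under 0.05 the counts were 5 and 21, beside 8.73% and 6.92% of all genes. The counts of higher genes were near these background shares, and the median log2 difference was -0.12. The count of falls depended on the scale, with 30 of the 69 lower relative to the CD3 genes, a scale on which 13.0% of all genes were called lower.

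Of 7 measured kinases, Syk fell and none rose, beside 2.46% and 1.82% of all genes, with a list median of -0.50. Syk, the relative of ZAP-70 that B cells and myeloid cells use, had intensities of 1500 and 1111 in wild type and 327 and 235 in lymphoma. It fell by 2.22 on the log2 scale (SE 0.25, adjusted p = 0.0088 in limma). Zap70 and Syk had differences of opposite sign, 0.97 and -2.22, on arrays where 7 of 9 B cell markers were lower. The part of the cell mix in this was not tested. Fyn, the Src family kinase that can act beside LCK, was 3465 and 4108 in wild type and 5338 and 5612 in lymphoma, a difference of 0.54 (adjusted p = 0.15). The Tec family kinases Tec (-1.14) and Txk (-1.09) did not pass (adjusted p = 0.073 and 0.36).

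The list of 22 adaptors and related signalling proteins, not all of which bind LAT, had a median log2 difference of -0.24. In limma 3 were lower and none higher, beside 2.46% and 1.82% of all genes. At an unadjusted p under 0.05 none was higher and 7 were lower, beside 8.73% and 6.92% of all genes. Grap2 (GADS), which joins LAT to SLP-76, had intensities of 2609 and 2714 in wild type and 623 and 664 in lymphoma. The groups were far apart, and Grap2 fell by 2.05 (SE 0.17, adjusted p = 0.0037 in limma). Its partner Lcp2 (SLP-76) measured 5524 and 4683 against 6551 and 5959, a difference of 0.30 that did not pass (adjusted p = 0.46). Plcg1, the phospholipase that docks on LAT, differed by 0.01 (95% interval -0.38 to 0.39), and Grb2, the partner of THEMIS, by -0.12 (95% interval -0.59 to 0.35).

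Rasgrp1, the diacylglycerol-responsive activator of Ras downstream of LAT, had intensities of 3242 and 2946 in wild type and 1560 and 1388 in lymphoma and fell by 1.07 (adjusted p = 0.023). Pag1, the membrane anchor of the inhibitory kinase CSK, had 553 and 334 in wild type against 97.6 and 75.4 in lymphoma and fell by 2.33 (adjusted p = 0.011). Trat1, an adaptor that stabilises the receptor at the surface, separated the lymphoma arrays, with 125 on array 1 and 690 on array 2 against 458 and 421 in wild type. Its log2 difference of -0.58 had an SE of 0.72.

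None of the 14 inhibitors passed in limma, with a list median of -0.08. At an unadjusted p under 0.05, 2 were higher and 4 lower, beside 8.73% and 6.92% of all genes. The largest differences were those of the phosphatase-like proteins Ubash3a and Ubash3b, which dampen T cell receptor signalling and differed in opposite directions. Ubash3a was 1242 and 1211 in wild type and 733 and 459 in lymphoma, a difference of -1.08 (adjusted p = 0.084). Ubash3b was 635 and 626 in wild type and 1264 and 772 in lymphoma, a difference of 0.65 (adjusted p = 0.31). Leaving out lymphoma array 2 took Ubash3b to 1.00 and Ubash3a to -0.74. Leaving out lymphoma array 1 took Ubash3b to 0.29 and Ubash3a to -1.42. In each of these fits 1 lymphoma array stood for its group. Ptprc (CD45), the phosphatase that keeps Src family kinases active, differed by 0.05 (95% interval -0.29 to 0.38).

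Of 12 accessory receptors, Icos rose and Fcer1g fell, beside 1.82% and 2.46% of all genes, and the list median was -0.21. Icos, a CD28 relative of activated and follicular helper T cells, had intensities of 2351 and 2308 in wild type and 4541 and 6242 in lymphoma and rose by 1.19 (SE 0.19, adjusted p = 0.026 in limma; 0.71, adjusted p = 0.034 relative to the CD3 genes). It rose where Cd28 differed by -0.04. Fcer1g, a zeta relative used by Fc receptors of myeloid and natural killer cells, was 2350 and 1853 in wild type and 357 and 437 in lymphoma and fell by 2.40 (adjusted p = 0.0049). Macrophage and monocyte markers were lower on the same arrays, and their part in this fall was not tested.

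Cd5, a receptor that restrains T cell receptor signals, was 3929 and 3479 in wild type and 2443 and 1557 in lymphoma, without overlap (difference -0.92, adjusted p = 0.11). Cd2, an adhesion receptor of all T cells, was 2860 and 2683 against 3374 and 3565 (difference 0.32, adjusted p = 0.39). The CD8 coreceptor genes Cd8a and Cd8b1 differed by -1.11 and -1.27 (adjusted p = 0.10 and 0.13), with both lymphoma arrays lower for each.

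Among 14 measured genes of distal signalling, Ppp3ca fell and none rose, beside 2.46% and 1.82% of all genes, with a list median of 0.13. Ppp3ca, a catalytic subunit of calcineurin, the phosphatase that activates NFAT, had intensities of 1189 and 999 in wild type and 424 and 301 in lymphoma and fell by 1.61 (SE 0.23, adjusted p = 0.018 in limma). The other catalytic subunit on the list, Ppp3cb, was 1538 and 1655 in wild type and 2106 and 1852 in lymphoma (difference 0.31, adjusted p = 0.49). The NFAT genes Nfatc1, Nfatc2 and Nfatc3 differed by -0.08, 0.21 and 0.12 and none passed. Malt1, a paracaspase that links the receptor to NF-kappaB, measured 3920 on lymphoma array 1 and 1263 on lymphoma array 2, on either side of 1729 and 1919 in wild type.

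**Figure D4:**
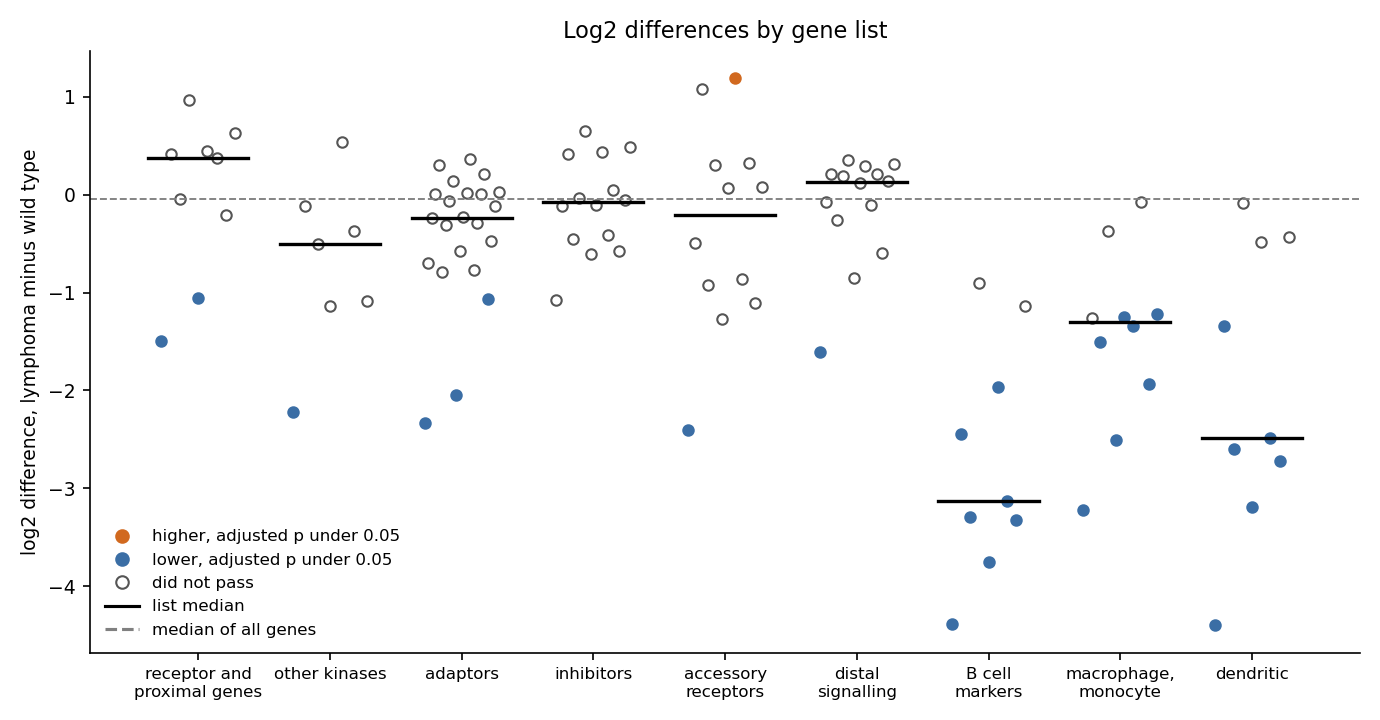
Log2 differences, lymphoma minus wild type, of single genes (points) in the receptor list, the 5 other pathway lists and 3 lists of markers of other cells, with list medians (lines) and the median of all genes, -0.04 (dashed). Filled points passed an adjusted p under 0.05 in limma. The receptor list has a median of 0.37 with Lat and Themis below it, and the B cell, macrophage and dendritic lists have medians of -3.13, -1.30 and -2.49.

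The genes most like Cd3e over the 4 arrays, by Euclidean distance between log2 values after subtracting each gene's mean, were Oxr1 (0.026), Ints2 (0.032) and Gm16386 (0.033) among 9969 genes above the median level. Those most like Themis were Adam11 (0.063), Susd1 (0.078) and Crim1 (0.117). Adam11 had intensities of 361 and 382 in wild type and 128 and 131 in lymphoma. With 4 arrays in 2 groups such likeness reflects mainly the size of the group difference.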

How the data were processed

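The authors deposited linear intensity values for each probe set and array, made with Affymetrix Expression Console per the submitters' processing notes. The summarisation, background correction, normalization and version were not given in the sources used here. Without detection calls, differences of dim genes may be understated. Of 35556 probe sets, 21789 had 1 gene symbol in GEO's platform annotation, 1621 several and 12146 were not listed. The probe set with the highest mean was used for each of 19938 genes (21698 of the 21789 probe sets matched RefSeq by identifier and 0 symbols changed). Log2 was taken without a pseudocount.

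Groups were compared in limma 3.58.1 (R 4.3.3) with a variance trend, 2 residual and 4.24 prior degrees of freedom, two-sided, with Benjamini-Hochberg adjustment over all genes; adjusted p under 0.05 was a call. In simulated data for this comparison, with 200 of 19938 genes changed, 0% of changes of 1 log2 unit and 88.5% of changes of 2 log2 units were recovered. Fewer genes changed there than were called in the data (362 higher and 490 lower), so these shares may be too low. Members and lists were chosen with earlier results of these data known. Named genes were all members, up to 4 called genes per pathway list (or the 2 largest differences where none was called), the 3 genes most like Cd3e and Themis, and Tet2; other genes in the text were chosen after their values were seen. Alternatives were 3 normalizations, a filter on the lowest 33.3% of levels, a pseudocount of 16, 2 other variance models, averaged probe sets, a replicate block and each array left out. The number of arrays limits precision. Figures were drawn with matplotlib 3.10.9.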

Additional observations from a re-analysis of the deposited data

How the results depend on the processing

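Lat and Themis stayed lower and called in the 9 settings that keep all 4 arrays, with adjusted p up to 0.034 and 0.015 in limma. Among these settings, the scaling to the CD3 genes shifts all genes down and is no separate support. The count of members called higher was 1 (Zap70, adjusted p = 0.032) with the replicate block, and otherwise 0 with all arrays. Same-numbered samples had deviations from their group means that correlated at r = 0.228 over genes, which with 2 numbers does not show that they were paired, and the submitters' design text speaks of pairs of RNA without naming them; the block gave 429 genes higher and 555 lower and 2 pathway genes higher. Scaled to the CD3 genes, 2588 genes and 30 pathway genes were lower, and Cd4 differed by -0.07. With array medians subtracted, Cd28 differed by 0.00125. With 1 array left out, members higher ranged from 0 to 1 and members lower from 0 to 2, genes higher from 0 to 1057 and genes lower from 0 to 843, and pathway genes higher from 0 to 3 and lower from 0 to 13; Cd247 ranged from -0.58 to 0.17, including 0.00397 without wild type array 1, and Cd28 from -0.18 to 0.11, including 0.04 without wild type array 2. The 0 counts come from the fits without a wild type array (for members higher, also from that without lymphoma array 1). Without a wild type array, the lymphoma arrays alone set the spread. With 1 array standing for a group, it is assumed to vary like the other group. The CD3 genes have no value under their own scaling. The simulation recovered 0% of changes of 1 log2 unit, but it changed only 200 genes. In the data 362 genes were called higher and 490 lower, and Lat passed at -1.06, so this share may be too low here. The members' differences that did not pass are not shown to be absent.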

Other observations

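Cd3g, Cd3d and Cd3e follow each other on the mouse chromosome in RefSeq, with no other measured protein-coding gene between them. The next 3 measured genes on the side of Cd3g, Ube4a, Atp5l and Kmt2a, differed by -0.17, -0.24 and -0.27 on the log2 scale, and none passed in limma. The wild type arrays differed from each other by 1.18 for Atp5l. Neighbours were placed by gene symbol, and the genomic positions of their probe sets were not checked. On the side of Cd3e, Mpzl2, an adhesion molecule of the immunoglobulin superfamily, had intensities of 73.4 and 66.5 in wild type and 100 and 121 in lymphoma, with both lymphoma arrays higher (difference 0.66, adjusted p = 0.13). Mpzl3 differed by -0.09, and Jaml, a junctional adhesion molecule of leukocytes, was 273 and 203 in wild type and 132 and 80.5 in lymphoma (difference -1.19, adjusted p = 0.088). The 3 CD3 genes had positive differences between neighbours of mixed sign.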
